A study of Mus musculus with 12 samples.

Results

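The genes described here encode the proteins of the mitochondrial ribosome. They were chosen by symbol alone: every row of the deposited count table named Mrps or Mrpl followed by a number and at most one of the letters a, b or c. The rule found 77 genes among 35976 rows, of which 29 carry a small subunit symbol (Mrps) and 48 a large subunit symbol (Mrpl). All 77 had reads in every library and passed the filter on low values (a mean of at least 10 normalized counts), as did 15341 genes in all. The lowest read count of any member in any library was 945 (Mrpl36).

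RNA-seq was made from mouse embryonic stem cells (mESC) derived from blastocysts carrying floxed Tet2 alleles (TET2 fl/fl), a background that every group shares. KO+Rescue cells are KO cells in which FLAG-tagged Proser1 was put back with a PiggyBac transposon under blasticidin selection and which were then subcloned. KO cells are a single-cell clone made with CRISPR and a guide in exon 1 of Proser1, and WT cells are the parental line, so each modified genotype is 1 clone. Each genotype was sampled after 2 days (48 h) in N2B27 medium without the inhibitors and LIF, and as mESC kept feeder-free on gelatin in serum with CHIR99021, PD0325901 and LIF. There are 6 groups of 2 libraries, called A and B here after the letters in the table, which the study describes as biological replicates. The table's columns name the modified lines only by number; reading them as KO and KO+Rescue is an inference from those names. The libraries held 38634668 to 66450803 read pairs assigned to genes.

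The mitochondrial ribosome translates the few proteins that the mitochondrial genome encodes, all of them parts of the respiratory chain and the ATP synthase. All of its own proteins are encoded in the nucleus, made in the cytosol and imported. Many are homologues of bacterial ribosomal proteins, and the others are found only in mitochondria. Symbols do not always give the subunit: the products of Mrps30 and Mrps18a sit in the large subunit, and the product of Mrps36 is now regarded as a component of the 2-oxoglutarate dehydrogenase complex instead. By structure the members then comprise 26 small and 50 large subunit genes.

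The labels were checked first. Proser1 mRNA was not called different in KO cells relative to WT cells (log2 fold change -0.38 in mESC and 0.36 at day 2, limma adjusted p = 0.215 and 0.368), and it was higher in KO+Rescue than in KO cells (2.46 in mESC and 1.64 at day 2, limma adjusted p = 0.000222 and 0.00122). The summed normalized count of 7 pluripotency markers lay between 66040 and 122300 in the 6 day 2 libraries, against 221000 to 327700 in the 6 mESC libraries, whereas 6 markers listed as early neural summed to 10480 to 19240 at day 2, against 312.4 to 469.5 in mESC. Nearly all of that sum came from Pou3f1, Fgf5 and Otx2, which the formative epiblast also expresses. Sox1, Pax6 and Zic1 had at most 180.7 counts in any library, and Pax6 had 56.3 and 47.8 counts at day 2, against 53.3 and 70.2 in mESC, in WT cells. The sum of 7 fibroblast markers, of which 5 passed the filter, was 742.7 to 1633 at day 2, against 124.7 to 446.9 in mESC, with Lum at 0 in most libraries. In bulk RNA, fewer cells of a type and less RNA per cell cannot be told apart.

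Levels were compared between genes per kilobase of coding sequence. Averaged over the 12 libraries, the highest levels belonged to Mrpl12 (27205 ± 5005 normalized counts per kb, SD over 12 libraries), a homologue of the bacterial stalk protein that contacts translation factors, Mrpl18 (25058 ± 6666) and Mrpl17 (24271 ± 10535). The lowest were Mrps15 (2839 ± 525), Mrpl37 (2956 ± 426) and Mrps2 (3065 ± 563). These 3 lowest levels differed by less than their spread over libraries, as did the 3 highest. Of the 3 Mrps18 paralogs, which occupy different sites in the ribosome, Mrps18c stood at 13079 ± 5173 per kb, Mrps18b at 6256 ± 1214 and Mrps18a at 5895 ± 1506. Mrps30 stood at 3476 ± 566 and Mrps36 at 5885 ± 1586 per kb.

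Taken as a sum, the 77 mRNAs made up 0.623% to 1.00% of all reads, and the Mrps genes gave 28.2% to 30.9% of that sum in every library. The plot of summed levels shows that each subunit moved with the other. In KO+Rescue cells the members took 0.773% and 0.815% of reads at day 2, against 0.892% and 1.00% in mESC; in KO cells 0.721% and 0.724%, against 0.848% and 0.903%; and in WT cells 0.623% and 0.739%, against 0.719% and 0.836%. The day 2 libraries were lower than the mESC libraries in KO+Rescue and KO cells, and overlapped in WT cells. With 2 libraries against 2, an exact permutation test of a single value such as this sum cannot give a two-sided p below 0.333.

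**Figure D1:**
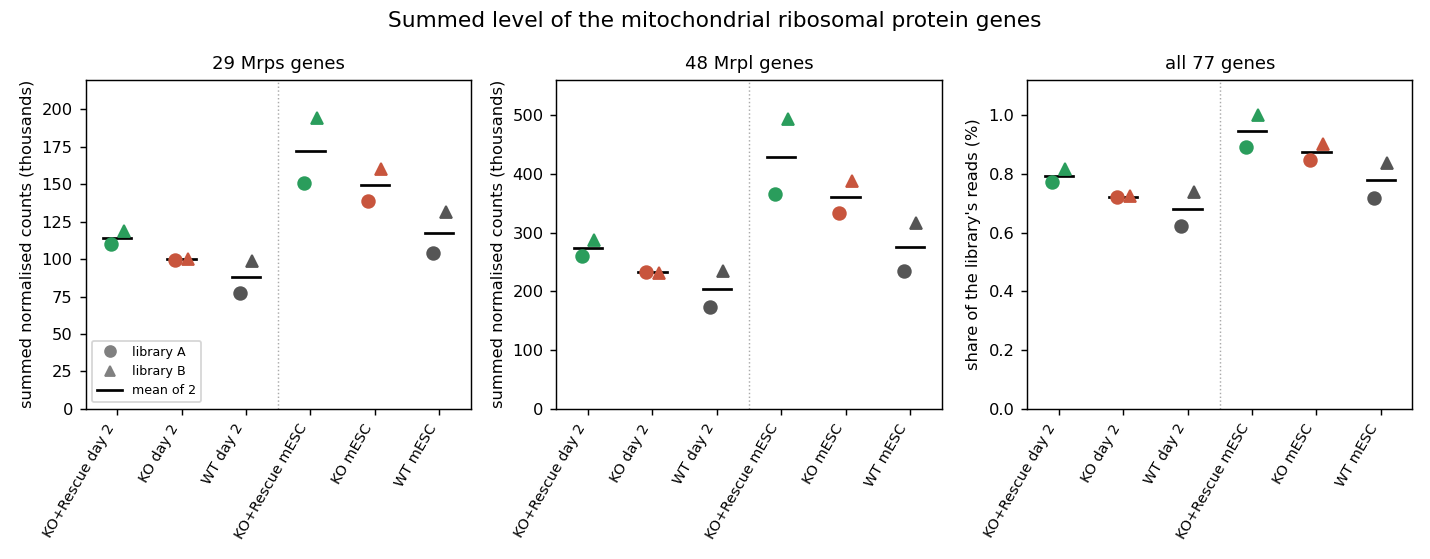
Summed normalized counts (in units of 1000) of the 29 Mrps genes (left) and the 48 Mrpl genes (middle), and the share of each library's reads taken by all 77 genes in percent (right). Circles are library A, triangles library B, lines the mean of 2; day 2 groups stand left of mESC groups, and the highest share, 1.00%, is that of KO+Rescue mESC library B.

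Replicate libraries of one group differed in the level of the whole family. In WT mESC, library B was higher than library A for 74 of 77 members, with a median log2 difference of 0.40, and in WT cells at day 2 for 72 members with a median of 0.42. The same held for 70 members in KO mESC (median 0.21), 70 in KO+Rescue mESC (0.39) and 66 in KO+Rescue cells at day 2 (0.12), whereas in KO cells at day 2 only 36 were higher (-0.0066). Over all tested genes these medians lay between -0.016 and 0.021. The share of reads taken by 82 cytosolic ribosomal protein genes moved alongside, between 12.4% in WT day 2 library A and 23.3% in KO+Rescue mESC library B; its part in the differences between groups was not tested. The spread between the 2 WT libraries is therefore part of every comparison with WT below.

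**Figure D2:**
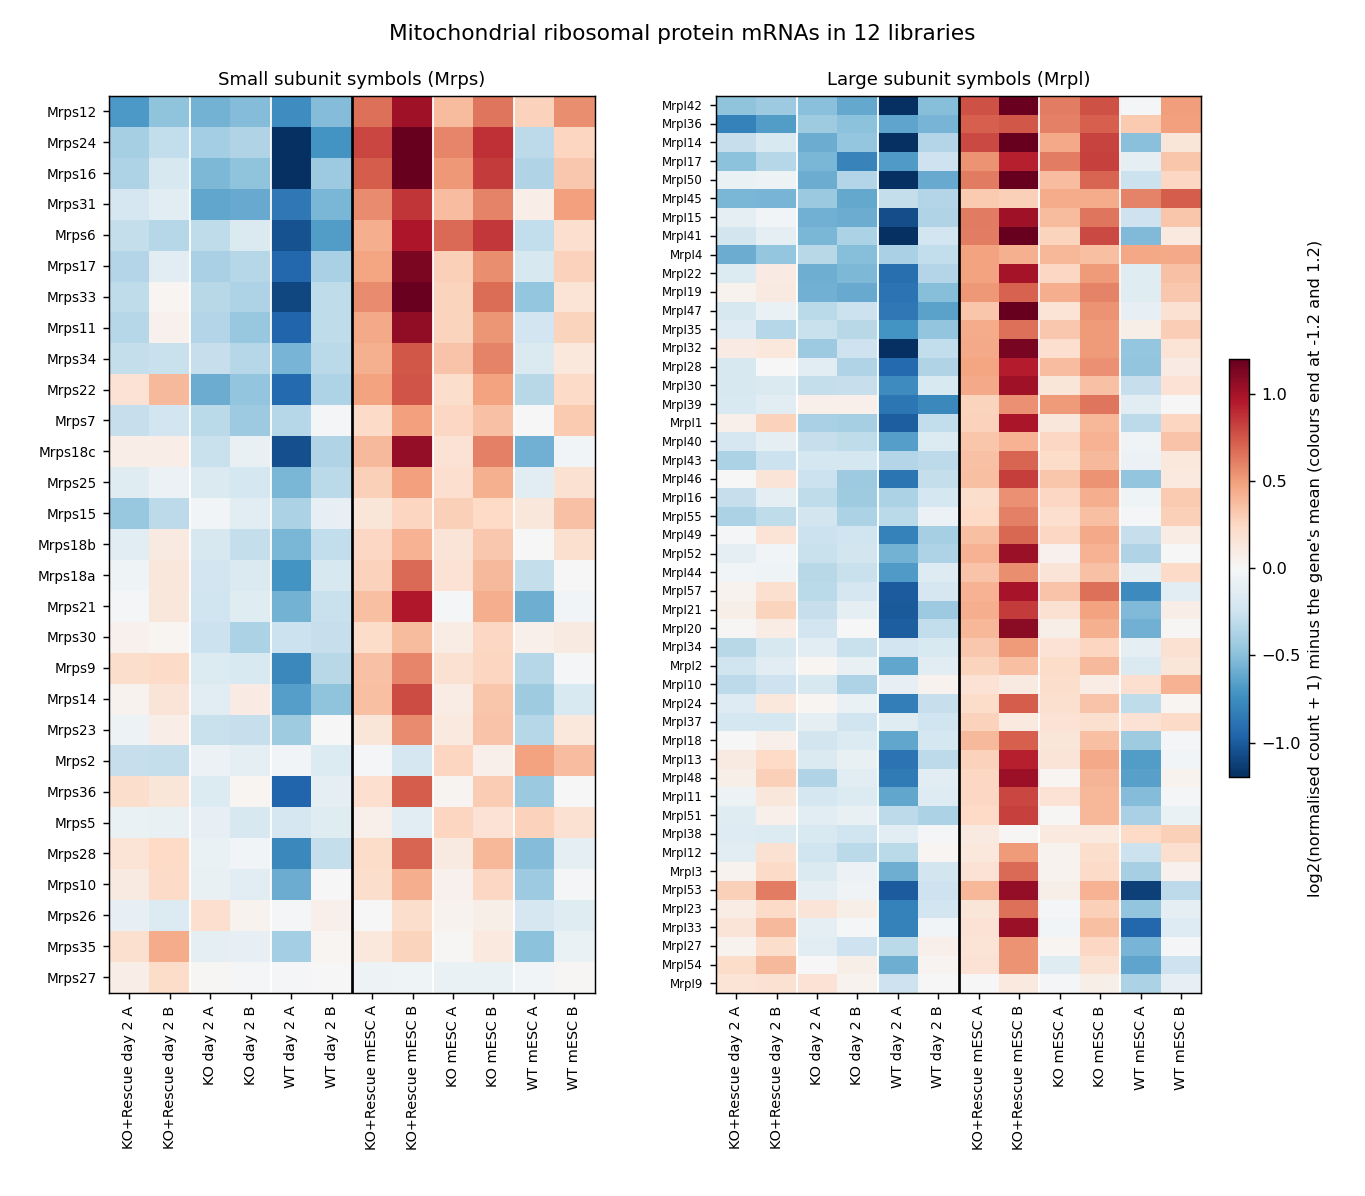
Level of each gene in each library as log2(normalized count + 1) minus that gene's mean over the 12 libraries (red above, blue below, colors ending at -1.2 and 1.2), with Mrps genes on the left and Mrpl genes on the right, sorted by their mean change at day 2. Day 2 libraries are left of the black line; the lower rows, down to Mrps27 and Mrpl9, show no fall, and library A of WT is the palest or bluest of its pair for most genes.

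The first comparison asked how the family changed between mESC and day 2 in N2B27 medium. Expression fell at day 2 across both subunits and in all 3 genotypes. In KO+Rescue cells 46 of 77 members were called lower and 0 higher, while 29.1% of all tested genes were called lower and 29.2% higher. In KO cells 50 were lower and 0 higher (background 28.7% lower and 31.4% higher), and in WT cells 35 were lower and 0 higher (25.3% lower and 26.6% higher). The calls come from limma with Benjamini-Hochberg adjusted p under 0.05 over all tested genes. Both subunits held calls: 16 Mrps and 30 Mrpl genes were lower in KO+Rescue cells, 19 Mrps and 31 Mrpl genes in KO cells, and 15 Mrps and 20 Mrpl genes in WT cells.

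The median log2 change of the members differed little between subunits. In KO+Rescue cells it was -0.47 for Mrps and -0.55 for Mrpl genes, in KO cells -0.49 and -0.53, and in WT cells -0.40 and -0.41. The median of all tested genes was -0.027, 0.016 and -0.022 in the same order of genotypes. The 28 members with a coding length under 500 nucleotides had -0.73, -0.55 and -0.36. Other genes of that length fell as well, with medians of -0.44, -0.37 and -0.17. The 11 members of 1000 nucleotides or more had -0.29, -0.40 and -0.39, against 0.15, 0.18 and 0.053. The part of length in the fall was not tested. With Mrps18a and Mrps30 counted in the large subunit and Mrps36 left out, the small and large subunit medians were -0.54 and -0.54 in KO+Rescue, -0.50 and -0.53 in KO, and -0.44 and -0.40 in WT cells. Scaling the libraries to equal totals, in place of the size factors, shifted the median of all genes at day 2 to 0.34 in KO+Rescue, 0.35 in KO and 0.21 in WT cells, and the split of all calls to 40.2% higher and 16.3% lower, 40.7% and 16.5%, and 32.4% and 15.5%. Under that scaling 25, 23 and 17 members were called lower and 3 in each genotype higher, with medians over all members of -0.16, -0.18 and -0.17. Leaving out 1 library at a time left 23 to 54 members called in KO+Rescue, 24 to 40 in KO and 14 to 51 in WT cells. In WT cells the count was 14 without day 2 library A or without mESC library B. In KO cells it was 24 without mESC library B and 29 without day 2 library B, and in KO+Rescue cells 23 without mESC library B and 27 without day 2 library A.

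**Figure D3:**
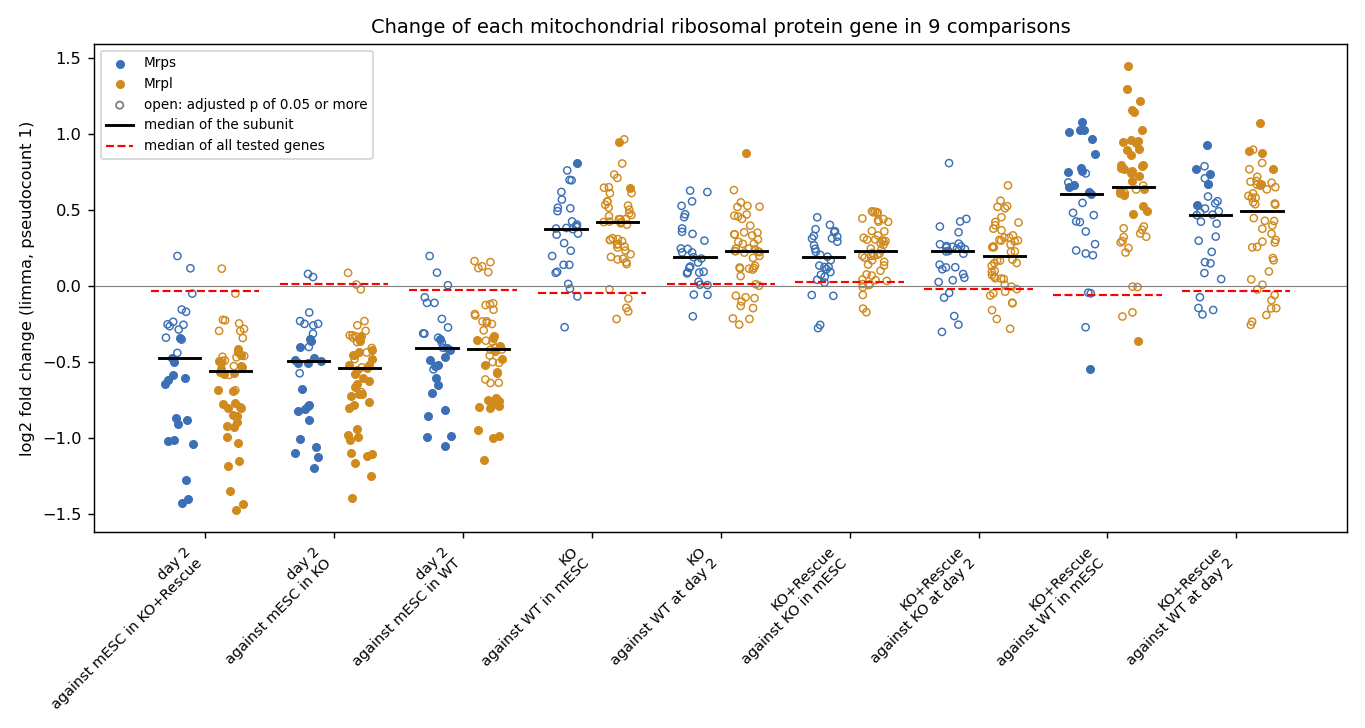
Log2 fold change of each member in 9 comparisons (limma, pseudocount 1); blue points are Mrps genes, orange points Mrpl genes, filled where adjusted p was under 0.05. Black lines mark each subunit's median and red dashed lines the median of all tested genes: the members lie below it in the 3 comparisons of day 2 with mESC and above it in the 6 comparisons between genotypes.

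Of the 77 members, 30 were called lower in all 3 genotypes (11 small and 19 large), 14 in 2, 13 in 1 and 20 in none. The same overlap was not counted over all tested genes, of which 25.3% to 29.1% were called lower in each genotype. The changes at day 2 resembled each other across members, with a Pearson r over 77 genes of 0.85 between KO and KO+Rescue, 0.82 between WT and KO and 0.76 between WT and KO+Rescue cells; these are descriptions across genes, which are not replicates, and the points share library depth and the same 2 stages. A negative change in all 3 genotypes was seen for 69 members, a count not made over all tested genes.

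Among the members with the most negative changes was Mrpl42, a mitochondria-specific protein of the large subunit. In KO+Rescue cells it had 5430.1 and 5585 normalized counts at day 2, against 12891 and 17189 in mESC; in KO cells 5359 and 4951, against 11619 and 12847; and in WT cells 3130.2 and 5328, against 7528 and 10747. No day 2 library reached the lowest mESC library of its genotype, and the log2 change was -1.43 ± 0.23 (SE), -1.25 ± 0.23 and -1.14 ± 0.23 (limma adjusted p = 0.000148, 0.000441 and 0.00105).

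Mrpl36, which encodes one of the smallest proteins of the large subunit and has a bacterial homologue, was measured with little spread. In KO+Rescue cells its counts were 1109 and 1224 at day 2, against 3192 and 3259 in mESC. KO cells had 1449 and 1379, against 2953 and 3193. In WT cells the values were 1257 and 1317, against 2417 and 2737. The fall was 1.47 ± 0.12, 1.12 ± 0.12 and 1.00 ± 0.12 on the log2 scale, with limma adjusted p = 3.57e-07, 3.98e-06 and 1.45e-05. All 6 day 2 libraries lay below all 6 mESC libraries.

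Mrps12 encodes the homologue of the bacterial protein at the decoding center of the small subunit. It had 1626 and 1879.7 counts at day 2 in KO+Rescue cells, against 4156 and 5305 in mESC, 1771 and 1832 in KO cells, against 3413 and 4106, and 1562 and 1830.2 in WT cells, against 3176 and 3863. The day 2 levels of the 3 genotypes lay within 1562 to 1879.7, while the mESC levels ran higher in KO+Rescue cells. Its log2 changes were -1.42, -1.06 and -1.05 (SE 0.16 each; limma adjusted p = 6.7e-06, 8.72e-05 and 0.000115).

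Mrps24, another small subunit protein with a bacterial homologue, fell by 1.40, 1.12 and 0.99 on the log2 scale in KO+Rescue, KO and WT cells (SE 0.22 each, limma adjusted p = 0.000165, 0.000874 and 0.00258). Its counts were 5889 and 6362 at day 2 in KO+Rescue cells, against 13546 and 19139 in mESC, and 3134 and 4722 in WT cells, against 6265 and 9279. The groups did not overlap. Mrps31 and Mrpl45 encode mitochondria-specific proteins, the second of which lies near the peptide exit and the inner membrane. They fell by 0.88 and 0.85 on the log2 scale in KO+Rescue cells and by 1.10 and 0.98 in KO cells. In WT cells the log2 change was -0.99 and -0.98 (limma adjusted p at most 0.000444 in all of these).

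Mrpl17, a large subunit protein with a bacterial homologue, showed the most negative single change in KO cells: 8033 and 6775 counts at day 2, against 18022 and 20867 in mESC (log2 change -1.39 ± 0.19, limma adjusted p = 4.66e-05). In WT cells it had 7373 and 9887, against 10835 and 14830 (-0.57 ± 0.19, adjusted p = 0.0252). The test of the difference between these changes gave an interaction of -0.82 ± 0.27 with a limma adjusted p of 0.202, which does not pass. Mrps16 of the small and Mrpl14 of the large subunit, which also have bacterial homologues, changed by -1.27 and -1.35 in KO+Rescue cells and by -1.19 and -1.16 in KO cells. Mrpl14 did not pass in WT cells (-0.63, limma adjusted p = 0.0793), where its groups overlapped.

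A few members did not follow the family. Mrps27, a mitochondria-specific small subunit protein of the pentatricopeptide repeat class, had 6584 and 7248 counts in KO+Rescue cells at day 2, against 6002 and 6025 in mESC. The KO values were 6314 and 6199, against 5924 and 5897, and the WT values 6188 and 6250, against 6092 and 6284. Its level varied by only 295 per kb around 5020.5 over the 12 libraries. Mrpl9, a large subunit protein with a bacterial homologue, had changes of 0.12, 0.089 and 0.12. Mrps27 and Mrpl9 were the only members with a positive change in all 3 genotypes. Mrps26, Mrps35 and Mrpl54 had mean changes over the genotypes of 0.0095, 0.013 and 0.044. None of these 5 passed the test in any genotype (smallest limma adjusted p = 0.106). Under equal library totals Mrps27 was called higher in KO and KO+Rescue cells (0.42 and 0.57), Mrps26 in WT and KO cells (0.43 and 0.40), Mrps35 in KO+Rescue cells (0.49), Mrpl27 in WT cells (0.40) and Mrpl9 in all 3, so that whether these mRNAs kept or gained level depends on the scaling.

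**Figure D4:**
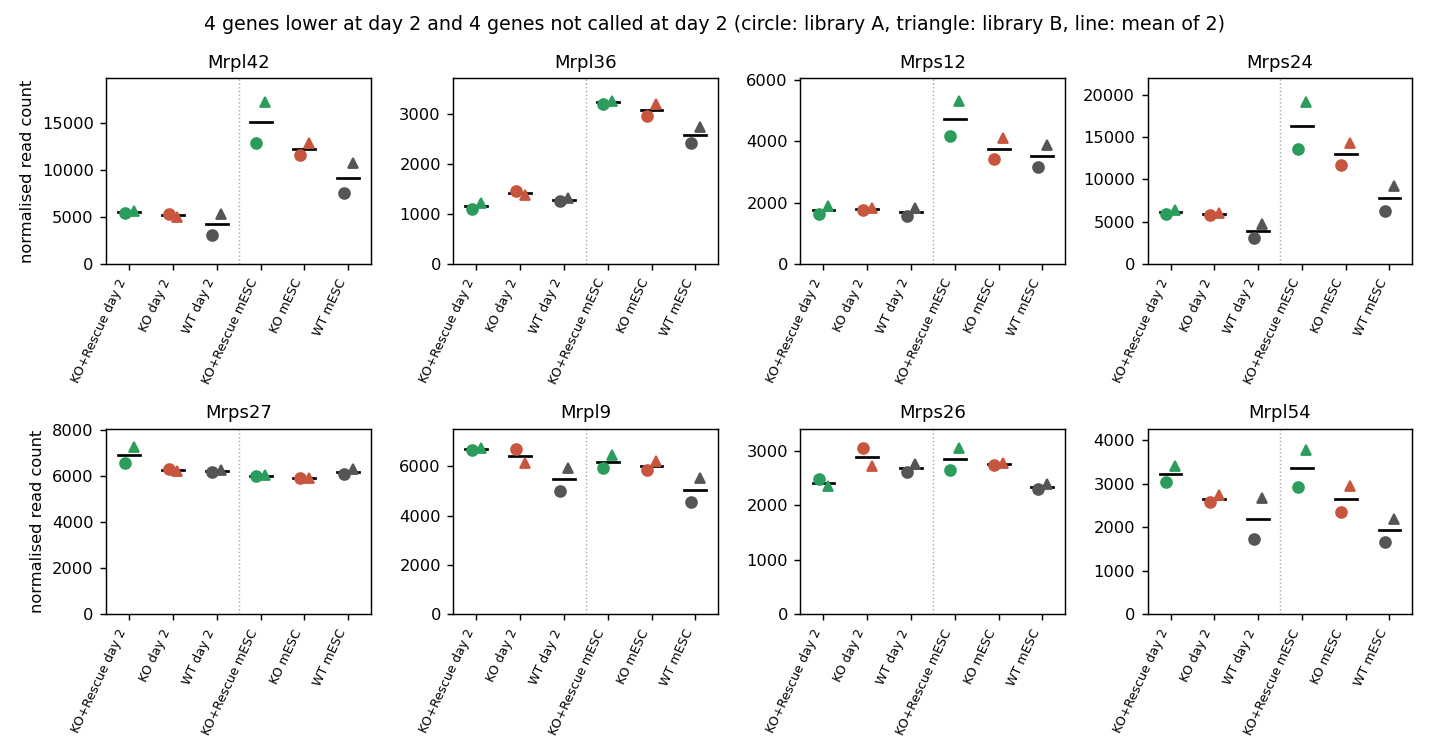
Normalized read counts of 8 members in each library, with an axis from 0. Mrpl42, Mrpl36, Mrps12 and Mrps24 (top) lie lower in the day 2 groups on the left of each panel than in the mESC groups on the right; Mrps27, Mrpl9, Mrps26 and Mrpl54 (bottom) were not called. Circles are library A, triangles library B and lines the mean of 2.

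The Mrps18 paralogs and the genes with misleading symbols were not alike. Mrps18b was called lower in all 3 genotypes (-0.34 in KO+Rescue, -0.47 in KO and -0.52 in WT cells; limma adjusted p = 0.0491, 0.00954 and 0.00694). Mrps18a passed in KO cells only (-0.49, limma adjusted p = 0.0364), with -0.44 and -0.31 in KO+Rescue and WT cells, and Mrps18c in KO+Rescue cells only (-0.64, limma adjusted p = 0.047), with -0.57 and -0.40 in KO and WT cells. Mrps30 fell in KO and WT cells (-0.49 and -0.35, limma adjusted p = 0.00256 and 0.0223). Mrps36 passed in no genotype (-0.28, -0.25 and -0.31), and differences between these genes were not tested.

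The 250 bases before the annotated start are shown for members that moved together and for some that did not, since many genes for mitochondrial ribosomal proteins are known to have compact promoters with ETS and NRF1 motifs and a neighbor read in the other direction. Of the 77 members, 68 had a promoter window in RefSeq (GRCm38.p6), running from 250 bases before to 50 after the start. Capitals mark CGGAAG, the core bound by ETS factors such as GABP, and GCATGCGC, a core of the NRF1 motif, on either strand; where both strands of the second overlap, 1 run of capitals holds 2 matches. For genes with a divergent neighbor only the bases between the 2 starts are given, and for Mrps27, whose start lies 108 bases from that of Ptcd2, only the 88 of them that lie outside its annotated span. Mrps24 (chr11:5707702-5707951, minus strand) and Mrpl17 (chr7:105811088-105811337, minus strand) fell in all 3 genotypes, as did Mrps12, whose 146 bases (chr7:28741822-28741967, minus strand) separate it from Sars2. Mrps27 (chr13:99344679-99344766, plus strand) did not fall. A run of 41 bases (chr7:78783090-78783130, plus strand) lies between Mrps11 and Mrpl46, a small and a large subunit gene read away from each other, and the window of Mrpl39 (chr16:84735245-84735494, minus strand) belongs to the member called in KO cells below.
Mrps24: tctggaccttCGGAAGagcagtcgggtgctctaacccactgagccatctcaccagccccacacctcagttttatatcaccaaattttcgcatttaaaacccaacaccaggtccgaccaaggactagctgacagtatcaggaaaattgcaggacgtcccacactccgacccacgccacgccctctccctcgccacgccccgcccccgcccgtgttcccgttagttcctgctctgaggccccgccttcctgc
Mrpl17: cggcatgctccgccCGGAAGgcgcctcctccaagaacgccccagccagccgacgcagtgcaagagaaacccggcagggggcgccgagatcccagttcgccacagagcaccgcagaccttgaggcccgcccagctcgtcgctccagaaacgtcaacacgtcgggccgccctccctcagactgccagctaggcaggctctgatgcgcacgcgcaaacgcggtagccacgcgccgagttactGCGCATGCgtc
Mrps12 to Sars2: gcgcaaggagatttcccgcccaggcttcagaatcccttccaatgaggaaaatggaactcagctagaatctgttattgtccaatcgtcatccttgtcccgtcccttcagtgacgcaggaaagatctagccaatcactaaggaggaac
Mrps27: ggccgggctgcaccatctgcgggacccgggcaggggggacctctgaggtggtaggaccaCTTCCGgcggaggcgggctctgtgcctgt
Mrpl46 to Mrps11: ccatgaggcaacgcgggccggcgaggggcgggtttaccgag
Mrpl39: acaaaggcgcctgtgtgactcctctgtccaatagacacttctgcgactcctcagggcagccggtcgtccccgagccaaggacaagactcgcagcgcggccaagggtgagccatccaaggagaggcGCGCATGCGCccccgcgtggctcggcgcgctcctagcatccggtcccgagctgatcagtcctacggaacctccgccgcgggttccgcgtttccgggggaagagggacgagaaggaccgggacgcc

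The ETS core was found in the windows of 38 of 68 members (55.9%), against 18.8% of 27025 genes with a window. GCATGCGC was found in 8 (11.8%), against 3.05% of all genes, and ATGGCGGC, a form of the YY1 motif, in 12 (17.6%), against 2.6%. CACGTG, the E-box, was present in 5 members (7.35%), against 8.09% of all genes, and GGGCGG, the SP1 core, in 34 (50%), against 38.2%. Both strands were searched; GCATGCGC overlaps its own reverse complement, and none of the other motifs holds another. The ETS core was in 14 of 26 windows of members lower in all 3 genotypes and in 10 of 16 of members lower in none, and GCATGCGC was in 5 of 26 and 3 of 16. By subunit, the ETS core was in 15 of 26 Mrps and 23 of 42 Mrpl windows, whereas GCATGCGC was in 1 of 26 and 7 of 42. The SP1 core was in 14 of 26 windows of members lower in all 3 genotypes and 5 of 16 of those lower in none, and in 17 of 26 Mrps and 17 of 42 Mrpl windows. None of these splits was tested. A match is a description of these letters and not evidence of binding.

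A divergent neighbor starting at most 500 bases upstream was annotated for 23 of 68 members (33.8%), against 10.9% of all genes with a window. Mrps11 and Mrpl46 start 42 bases apart. At day 2 Mrps11 was called lower in all 3 genotypes (-0.90 in KO+Rescue, -0.80 in KO and -0.65 in WT cells) and Mrpl46 in KO cells (-0.78, with -0.52 and -0.40 in KO+Rescue and WT cells). Mrps12 and Sars2, the mitochondrial seryl-tRNA synthetase gene, start 147 bases apart but were measured differently. Sars2 had 982.1 and 988 counts at day 2 in KO+Rescue cells, against 959 and 889 in mESC, and 1083 and 780.3 in WT cells, against 1209 and 844. Its log2 change was 0.094, 0.092 and -0.14 in KO+Rescue, KO and WT cells and did not pass, beside a fall of at least 1.05 for Mrps12; the difference between the 2 genes was not tested. Of 21 neighbors that are no members, 19 were tested. In KO+Rescue cells 7 were lower and 4 higher, in KO cells 8 and 4, and in WT cells 6 and 2, where the background was 29.1% lower and 29.2% higher, 28.7% and 31.4%, and 25.3% and 26.6%.

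The next comparison asked whether loss of PROSER1 changed the family. In mESC most members had higher means in KO than in WT cells, but few passed the test over all genes. The change was positive for 69 of 77 members, with a median of 0.38 for Mrps and 0.42 for Mrpl genes, against -0.045 over all tested genes. Called higher were 3 members and lower 0 (limma, 3.23% of all tested genes were higher and 6.26% lower), so the share of members called was close to the background in this fit. That depends on the fit. With the library letter added as a replicate block, 41 members were called higher, against 11.5% of all tested genes. The letters are not stated to mark a shared culture or day. DESeq2 called 8 members higher, against 5.1% of all tested genes. In the main limma fit, 31 members (40.3%) had an unadjusted p under 0.05, against 29% of all tested genes. Both shares pool the 2 directions, and the split by direction was not counted. At day 2 the change was positive for 65 members, with medians of 0.19 and 0.23, against 0.016 over all genes, and 1 was called higher and 0 lower (background 1.57% and 3.64%). The counts in mESC rest on single libraries: no member was called without WT library A or without KO library B, 1 was without KO library A, and 28 were without WT library B. At day 2 the count was 6 without WT library B and 1 without any other library. The KO libraries overlap neither WT library in summed level in mESC (472270 and 547910, against 338800 and 448000), and do at day 2 (333130 and 331200, against 250520 and 334200).

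Mrpl39, a mitochondria-specific large subunit protein, was called at both stages. KO cells had 6321 and 6919 counts in mESC, against 4031 and 4414 in WT cells, and 4621 and 4605 at day 2, against 2433 and 2585. The log2 change was 0.65 ± 0.12 in mESC and 0.88 ± 0.12 at day 2 (limma adjusted p = 0.00685 and 0.00107). The call in mESC was lost without KO library B (adjusted p = 0.0903), without WT library A (0.0536) and in a fit of the 2 groups alone (0.0716), whereas the call at day 2 held in every alternative. Mrps6, a small subunit protein with a bacterial homologue, had 3161 and 3548 counts in KO mESC, against 1608 and 2269 in WT mESC (0.81 ± 0.20, limma adjusted p = 0.0237). At day 2 it had 1599 and 1749 in KO cells, against 955 and 1239 in WT cells (0.62, adjusted p = 0.0973). In the annotation Mrps6 shares 404 exonic bases with Slc5a3 on the same strand, so that part of its reads is uncertain.

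Both genes lie on the distal part of chromosome 16, where the median gene was higher in KO cells. Within 5 Mb of Mrpl39 the median log2 change of 13 other genes was 0.65 in mESC and 0.62 at day 2. Around Mrps6 the median of 57 genes was 0.45 and 0.51. Mrpl40, the third member on chromosome 16, lies near the other end, where the neighbors' median was -0.0027 and -0.017, and its own change was 0.18 and 0.12. The part of this regional difference in the calls was not tested.

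Mrpl57, a small mitochondria-specific protein of the large subunit, was called in mESC only. It had 4491 and 5597 counts in KO cells, against 2092 and 3231 in WT cells (0.95 ± 0.26, limma adjusted p = 0.0399), and 2843 and 3084 at day 2, against 1772 and 3082, where the groups overlapped (0.34, adjusted p = 0.536). Its neighbors had medians of -0.021 and 0.052. The calls of Mrpl57 and Mrps6 in mESC were lost without either KO library, without WT library A, without the filter on low values and in a fit of the 2 groups alone (limma adjusted p = 0.0508 to 0.299). Mrpl53, also mitochondria-specific, had the most positive change of any member in mESC and just missed the threshold (0.97 ± 0.29, limma adjusted p = 0.0529). Of the members below WT, Mrps2, which has a bacterial homologue, came nearest to a call in mESC (-0.27, adjusted p = 0.163), and Mrpl10 did at day 2 (-0.25, adjusted p = 0.305).

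The 10 members on chromosome 11 stood apart from the other 67. In mESC their median change was 0.15, with 7 positive, while the other members had a median of 0.41, with 62 positive. At day 2 the median was -0.11 with 2 positive, against 0.24 with 63 positive for the rest, so that 8 of the 12 members below WT at day 2 lie on this chromosome. The 1189 other tested genes of chromosome 11 had medians of -0.27 and -0.17. One of the members above WT at day 2 was Mrps24, which lies at the proximal end, where the neighbors' median was 0.23. The part of this difference in the members' values was not tested.

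Members with short coding sequences had the more positive changes. Over 77 genes Pearson's r between log2 coding length and the change in KO relative to WT cells was -0.52 in mESC and -0.32 at day 2. Over 13015 tested genes with a coding length it was -0.22 and -0.045. These are descriptions across genes that share libraries. The 28 members under 500 nucleotides had a median of 0.45 in mESC, against 0.35 for other genes of that length, and the 11 members of 1000 or more had 0.20, against -0.15. At day 2 the same classes had 0.32, against 0.19, and 0.092, against -0.023. In each length class of both stages the members lay above the other genes. After each library's values were adjusted by a smooth fit on log2 coding length, the subunit medians in mESC were 0.16 for Mrps and 0.18 for Mrpl genes. The differences between libraries A and B were related to log2 coding length as well (r = -0.56 to -0.20 over the members of the 6 groups). The part of length in the change was not tested.

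**Figure D5:**
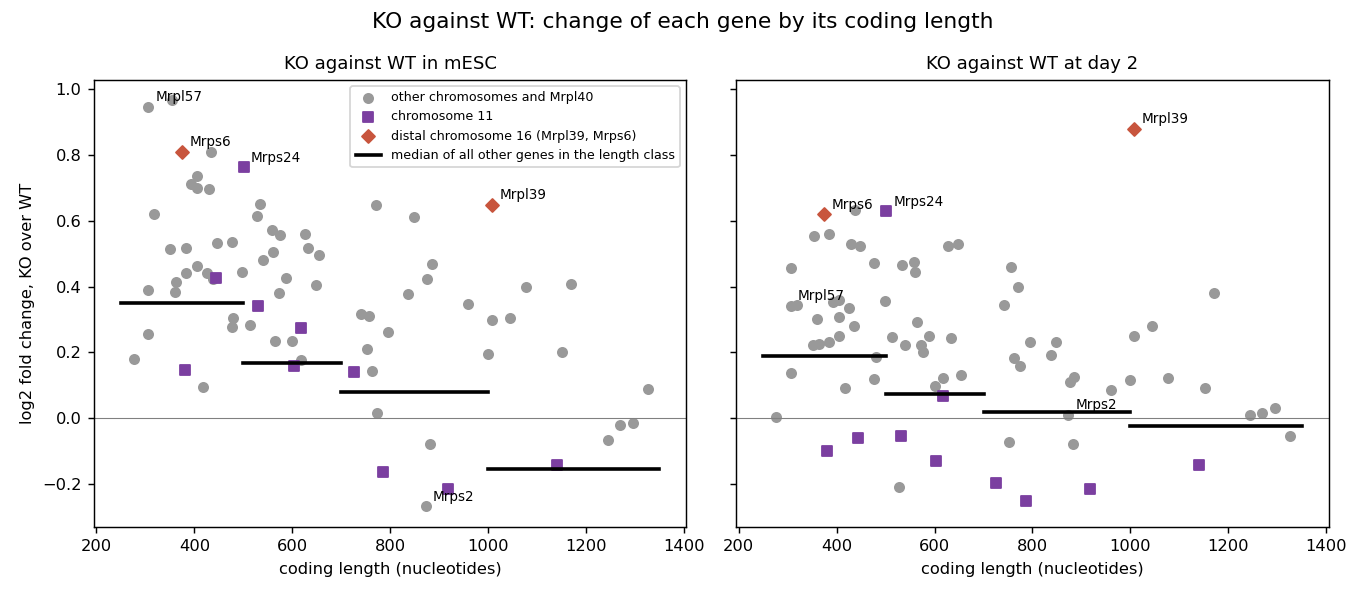
Log2 fold change of each member in KO relative to WT cells against its coding length in nucleotides, in mESC (left) and at day 2 (right). Squares are the 10 members on chromosome 11, diamonds Mrpl39 and Mrps6 on distal chromosome 16, and black lines the median of all other genes in 4 length classes; shorter genes lie higher, and 8 of the 10 squares lie below 0 at day 2.

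The comparison of KO+Rescue with KO cells asked what putting Proser1 back changed. Most members had somewhat higher levels in KO+Rescue cells, but none passed the test over all genes. No member was called between KO+Rescue and KO cells by limma at either stage, where 0.476% of all tested genes were higher and 1.04% lower in mESC and 0.502% and 1.33% at day 2. At an unadjusted p under 0.05, with both directions pooled, the members numbered 5 (6.49%) in mESC and 11 (14.3%) at day 2, against 13.4% and 17.1% of all tested genes. A fit of the compared groups alone called 24 members higher at day 2, and the share of all tested genes under that fit was not counted. The change was positive for 69 members in mESC and 62 at day 2, with medians of 0.20 and 0.23 for Mrps and 0.23 and 0.20 for Mrpl genes. The member nearest to a call was Mrpl19, a large subunit protein with a bacterial homologue, with 8349 and 8756 counts in KO+Rescue cells at day 2, against 5461 and 5334 in KO cells (0.66 ± 0.17, limma adjusted p = 0.0632). It was one of 2 members called by edgeR (adjusted p = 0.0478 for Mrpl19) and of 2 called by DESeq2 (0.0112). Of all tested genes, edgeR called 0.802% higher and 1.51% lower at day 2, and DESeq2 1.53% and 3.3%. In mESC Mrpl52 had 0.49 (limma adjusted p = 0.278). The lowest adjusted p in the other direction belonged to Mrps2 in mESC (-0.27, 0.346) and Mrpl36 at day 2 (-0.28, 0.251).

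Set against WT cells, KO+Rescue cells had the highest levels. In mESC 43 members were called higher (13 Mrps and 30 Mrpl) and 2 lower, while 9.15% of all tested genes were higher and 9.04% lower. The medians were 0.61 for Mrps and 0.65 for Mrpl genes, against -0.058 over all genes. The 28 members with a coding length under 500 nucleotides had a median of 0.79 and held 23 of the 43 calls. Other genes of that length had 0.485. The 11 members of 1000 nucleotides or more had 0.43, against -0.18. The part of length in this difference was not tested. At day 2, 11 were called higher (5 Mrps and 6 Mrpl) and 0 lower (background 3.9% and 7.2%), with medians of 0.47 and 0.49, against -0.028. Members under 500 nucleotides then had a median of 0.55, against 0.26 for other genes of that length. This comparison shares its WT libraries with the one of KO and WT cells and its KO+Rescue libraries with the one above, so the 3 are not independent. The counts depended on single libraries and on the scaling. No member was called in mESC without WT library A or without KO+Rescue library B, and 60 were without WT library B. At day 2, 0 were called without KO+Rescue library B, 1 without KO+Rescue library A, 1 without WT library A and 43 without WT library B. Equal library totals gave 23 higher and 5 lower in mESC, while 4.39% of all tested genes were higher and 25.4% lower.

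Mrpl53 led both lists. It had 6128 and 9663 counts in KO+Rescue mESC, against 2130.3 and 3732 in WT mESC (1.45 ± 0.29, limma adjusted p = 0.0098), and 5654 and 7105 at day 2, against 2319 and 3902 (1.08 ± 0.29, adjusted p = 0.033). All KO+Rescue libraries lay above all WT libraries of the same stage. In mESC it was followed by Mrpl14 (1.29), Mrpl41 (1.22), Mrpl33 (1.16), Mrpl57 (1.15) and Mrps24 (1.08), with limma adjusted p between 0.0117 and 0.0257; Mrpl41 is mitochondria-specific and Mrpl33 has a bacterial homologue. At day 2 it was followed by Mrps22 (0.93), which is mitochondria-specific, Mrpl21 (0.89), Mrpl50 (0.87), Mrps9 (0.77) and Mrpl19 (0.77), with limma adjusted p between 0.00884 and 0.0427. None of the 6 calls at day 2 held when WT library A or either KO+Rescue library was left out.

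Of 9 members with a negative change relative to WT in mESC, the 2 called were Mrps2 and Mrpl45. Mrps2 had 2590.1 and 2287 counts in KO+Rescue cells, against 3683 and 3414 in WT cells (-0.54 ± 0.12, limma adjusted p = 0.0145), and KO cells lay between at 3146 and 2754. Mrpl45 had 8524 and 8386, against 10398 and 11342 (-0.36 ± 0.11, adjusted p = 0.0439). It lies on chromosome 11, where its 200 neighbors had a median of -0.42 in this comparison. The neighbors of Mrps2 on chromosome 2 had -0.11. The call of Mrpl45 was lost without the filter on low values and in a fit of the 2 groups alone (limma adjusted p = 0.0646 and 0.257). That of Mrps2 was lost in the fit of the 2 groups alone (0.0968). At day 2 neither passed.

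No member passed the test for a difference between KO and WT cells in the change at day 2 (0 of 77 by limma, background 0.502% positive and 0.626% negative). The interaction was negative for 61 members, with a median of -0.14 for each subunit, against 0.025 over all tested genes. At an unadjusted p under 0.05, with both directions pooled, there was 1 member (1.3%), Mrpl17, against 12.9% of all tested genes. The smallest adjusted p in the negative direction was that of Mrpl17, given above, and in the positive direction that of Mrps2 (0.28, limma adjusted p = 0.528).

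Other genes of the mitochondrial expression pathway were counted from fixed lists, beside a background of 29.1%, 28.7% and 25.3% of all tested genes lower at day 2 in KO+Rescue, KO and WT cells. The background of genes called higher was 29.2%, 31.4% and 26.6%. Of 4 small subunit proteins without an Mrps symbol, 3 were lower at day 2 in each genotype; among them Ptcd3 fell by 0.88 in WT cells (limma adjusted p = 0.00146). Of 24 tested assembly factors, 9 were lower and 2 higher in KO+Rescue, 11 and 2 in KO, and 10 and 1 in WT cells, where the rRNA methyltransferase gene Mrm2 changed by -1.01 (adjusted p = 0.000177). Of 13 translation factors, 8, 7 and 4 were lower and 0, 1 and 0 higher in KO+Rescue, KO and WT cells, and the elongation factor gene Tufm had -0.89 in WT cells (adjusted p = 0.000334). Of the 20 mitochondrial tRNA synthetase and amidotransferase genes, 7, 5 and 6 were lower and 0, 3 and 1 higher in the same order, with medians of -0.052, -0.055 and -0.12. Their shares lower (35%, 25% and 30%) were near the background, and their shares higher (0%, 15% and 5%) were under it. Of 15 genes for mitochondrial transcription and RNA processing, 7, 8 and 7 were lower and 0, 2 and 0 higher; the RNA granule protein gene Grsf1 fell by 1.76 in WT cells (adjusted p = 6.11e-08).

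The mRNAs that the mitochondrial ribosome translates fell further. Of 11 tested mitochondrially encoded mRNAs, 10 were lower at day 2 in KO+Rescue, 7 in KO and 10 in WT cells, with medians of -1.70, -0.90 and -1.74. COX1, a catalytic subunit of cytochrome oxidase, had 36617 and 34082 counts in KO+Rescue cells at day 2, against 104140 and 174550 in mESC, and 36112 and 37742 in WT cells, against 149250 and 160760 (-2.07 in WT, limma adjusted p = 4.88e-06). Other mRNAs of this list had few counts: at most 74.8 for COX2, 42.7 for ATP6, 327.7 for COX3 and 143 for ND3 in any library. The medians and signs thus rest in part on low counts, and whether the reads of these genes were fully assigned was not tested. Between genotypes none of the 11 was called. At day 2 all 11 were positive in KO relative to WT cells, with a median of 0.61, and all 11 negative in KO+Rescue relative to KO cells, with a median of -0.48, 2 comparisons that share the KO libraries. In the same comparisons the ribosomal protein genes had positive medians.

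Of 9 tested regulators of mitochondrial gene expression, 2 were lower and 1 higher at day 2 in KO+Rescue cells. In KO cells 1 was lower and 2 higher, and in WT cells 3 were lower and 1 higher. The shares lower were 22.2%, 11.1% and 33.3%, against 29.1%, 28.7% and 25.3% of all tested genes. The shares higher were 11.1%, 22.2% and 11.1%, against 29.2%, 31.4% and 26.6%. Gabpa, which encodes the ETS subunit of GABP, was lower in all 3 genotypes (-0.46, -0.46 and -0.74 in the same order, limma adjusted p = 0.0126, 0.012 and 0.000656). Yy1 was lower in KO+Rescue and WT cells (-0.39 and -0.37, limma adjusted p = 0.0087 and 0.0139). In KO cells Yy1 was not called (-0.24, 0.0849). Mycn was higher in KO+Rescue and KO cells (0.66 and 1.10, limma adjusted p = 0.00334 and 6.4e-05). In WT cells Mycn was not called (0.30, 0.125). Esrra was higher in WT cells only (0.48, limma adjusted p = 0.0194). Nrf1 and Gabpb1 passed in no genotype. Myc went in different directions: its change was 0.12 in KO+Rescue cells (limma adjusted p = 0.575), 0.49 in KO cells (0.0237) and -0.76 in WT cells (0.00213). The difference between its changes in KO and WT cells passed the test (interaction 1.25, limma adjusted p = 0.0237), the only one of the 9 to do so. In KO relative to WT mESC, Myc was lower (-1.22, adjusted p = 0.000951), and at day 2 Mycn was higher (0.61, adjusted p = 0.0421). The assembly factor gene Malsu1 was the only one of its list called in KO mESC (0.74, adjusted p = 0.0403).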

How the data were processed

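RNA was extracted from 12 cultures with RNeasy and made into stranded libraries (NEBNext Ultra II Directional). Reads were trimmed with Trimmomatic, aligned to mm10 with STAR and counted per RefSeq gene as read pairs with featureCounts by the authors; versions are not given in the sources used here, nor is the strand setting of the counting, and reads of the Y chromosome were removed. The deposited signal is read-pair counts that the authors divided by DESeq2 size factors. Division by each library's step gave whole reads for 100% of the values (tolerance 0.001). Counts on both strands of overlapping genes may be shared, and 24 members share exon sequence with another gene of the table.

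Normalized counts were analyzed as log2(value + 1) for genes with a mean of at least 10, with limma 3.58.1 in R 4.3.3, trended variance, 6 group means and 10 contrasts; fold changes are on that scale. p-values were adjusted by Benjamini-Hochberg over all tested genes, and called means adjusted p under 0.05. The residual degrees of freedom were 6. Scripts were tested on simulated data. edgeR 4.0.16 and DESeq2 1.42.0 on the recovered reads, equal library totals, other pseudocounts and filters, fits of the compared groups alone, left-out libraries, a replicate block and an adjustment for coding length (added after seeing the data) served as alternatives. Coordinates and promoters are from RefSeq GRCm38.p6, and neighbors are genes within 5 Mb.

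Genes were named by rule: the Mrps18 paralogs, Mrps30, Mrps36, the 3 highest and 3 lowest per kilobase, up to 6 called members in each direction per contrast with the greatest change, or the smallest adjusted p where none was called, and up to 2 genes of each other list. Mrps27, Mrpl9, Mrps26, Mrps35, Mrpl54, Mrpl27, Mrps11, Mrpl46, Mrpl40, COX1, Sars2, Yy1, Mycn, Esrra, Nrf1 and Gabpb1 were named after their values were seen where they fall outside it. The members and lists were chosen with earlier results of these data known.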

Additional observations from a re-analysis of the deposited data

How the results depend on the processing

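Of the values of named genes under the alternatives, 609 kept direction and side of the threshold, 61 lost a call, 10 gained one and 0 changed direction. All 61 lost calls belonged to comparisons between genotypes, where each affected call was lost in 2 to 6 settings. The only named call between genotypes that held in every setting was Mrpl39 in KO relative to WT cells at day 2. No named call for day 2 relative to mESC was lost. The counts of called members moved more, and the cause was not tested. The shares of all genes that each setting called come first, higher before lower. In KO relative to WT mESC they were 5.1% and 8.3% with DESeq2 and 3.45% and 6.52% with a pseudocount of 5. Without the filter they were 1.19% and 2.52%, and with the length adjustment 4.45% and 7.62%. At day 2 edgeR gave 2.35% and 4.45%, DESeq2 3.19% and 6.11%, and the length adjustment 3.22% and 5.16%. In KO+Rescue relative to KO cells at day 2 edgeR gave 0.802% and 1.51%, DESeq2 1.53% and 3.3%, and the length adjustment 1.43% and 2.8%. In KO+Rescue relative to WT mESC equal totals gave 4.39% and 25.4%, no filter 2.63% and 3.35%, and the length adjustment 7.87% and 9.65%. At day 2 DESeq2 gave 6.3% and 10.2%, no filter 1.22% and 3.37%, and the length adjustment 7.88% and 9.7%. For fits of the compared groups alone and with left-out libraries, the matching share of all tested genes was not counted. The counts of members under each setting follow. In KO relative to WT mESC (3 called) DESeq2 called 8, a pseudocount of 5 gave 5, no filter 1, the coding length adjustment 6, a fit of those groups alone 0, and left-out libraries 0 to 28. At day 2 (1 called) edgeR and DESeq2 each called 2, the length adjustment 6 and left-out libraries 1 to 6. In KO+Rescue relative to KO mESC (0 called) left-out libraries gave 0 to 1; at day 2 (0 called) edgeR and DESeq2 each called 2, the length adjustment 3 and those groups alone 24. In KO+Rescue relative to WT mESC (45 called) equal totals gave 28, no filter 18, the length adjustment 28, those groups alone 3 and left-out libraries 0 to 60. At day 2 (11 called) DESeq2 called 18, no filter gave 5, the length adjustment 29, those groups alone 7 and left-out libraries 0 to 43. For day 2 relative to mESC, equal totals gave 28 in KO+Rescue, 26 in KO and 20 in WT cells (46, 50 and 35 called), those groups alone 13 in WT, and left-out libraries 23 to 54, 24 to 40 and 14 to 51.

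Medians moved under equal totals at day 2 to -0.10 for Mrps and -0.19 for Mrpl genes in KO+Rescue, -0.15 and -0.20 in KO, and -0.17 and -0.17 in WT cells, and in KO+Rescue relative to WT mESC to 0.28 and 0.32. The length adjustment gave 0.30 and 0.34 there, 0.16 and 0.18 in KO relative to WT mESC, and -0.24 for Mrps genes at day 2 in KO+Rescue cells.

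The letters A and B are not stated to mark a shared culture or day, and did not go together in all groups: deviations correlated above 0.1 in 6 of 15 pairs of groups. These were every pair among the 3 mESC groups and WT day 2 (0.125 to 0.413), and the other 9 lay between -0.048 and 0.063. With the letter as a replicate block, the counts were 41 in KO relative to WT mESC and 13 at day 2. They were 1 and 9 in KO+Rescue relative to KO cells, and 49 in KO+Rescue relative to WT cells at day 2. For day 2 relative to mESC in WT cells the count was 53, and for the interaction of KO and stage 1. The block also called more of all tested genes. In KO relative to WT cells 11.5% were higher and 12.3% lower in mESC, and 4.56% and 5.99% at day 2. In KO+Rescue relative to KO cells these shares were 1.75% and 2.06% in mESC, and 3.68% and 4.03% at day 2. They were 11.4% and 11.9% in KO+Rescue relative to WT cells at day 2. In WT cells at day 2 relative to mESC they were 29.1% and 29.9%, and for the interaction 1.58% and 1.68%.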
